A study of Mus musculus with 10 samples.

Results

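Beta-tubulin genes encode the beta subunit of microtubules. The 8 mouse genes Tubb1, Tubb2a, Tubb2b, Tubb3, Tubb4a, Tubb4b, Tubb5 and Tubb6 were followed in single oocytes matured with or without TubA. They were chosen by name, from transcript identifiers matched to gene symbols, and are 8 of 35501 annotated genes in the files, with 14 transcripts between them. The series held 10 libraries, each made with Smart-seq2, a full-length method for polyadenylated RNA, from a single oocyte of ICR mice aged 6 to 8 weeks. Oocytes were taken at the germinal vesicle stage, when the nucleus is still intact, cultured for 16 h in M16 medium at 37 °C under 5% CO2, and collected at metaphase II, the arrest of the mature egg. The control group had 5 libraries, and the TubA group had 5 libraries of oocytes treated with 0.1 µg/mL TubA for 16 h. The labels do not say what the control medium contained in place of TubA. TubA is commonly short for tubastatin A, an inhibitor of the deacetylase HDAC6, although the labels give only the short form.

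Microtubules are polymers of dimers of alpha- and beta-tubulin, and in the oocyte they build the meiotic spindle that separates the chromosomes. The beta-tubulin isotypes differ mostly in their acidic C-terminal tails, which project from the microtubule surface and carry chains of glutamate added by enzymes of the TTLL family. HDAC6 acts on the partner, removing an acetyl group from alpha-tubulin. Cells also limit tubulin mRNA through the nascent protein: when free dimers are abundant, the factor TTC5 reads the first residues of tubulin at the ribosome and the message is degraded by the CCR4-NOT deadenylase.

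The coding ends are shown because they carry what sets the members apart and what they share. The first 30 coding bases follow, 5′ to 3′, from the GENCODE M21 transcripts of GRCm38, with the first 4 codons, those read in autoregulation, in capitals.
Tubb2a: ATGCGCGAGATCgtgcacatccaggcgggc
Tubb2b: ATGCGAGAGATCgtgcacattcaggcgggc
Tubb3: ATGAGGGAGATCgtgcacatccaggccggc
Tubb5: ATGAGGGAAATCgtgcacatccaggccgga
All 8 members encode the same first 4 residues, in 7 different spellings of those 12 bases.

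The last 75 coding bases, stop codon included, encode the C-terminal tail. Glutamate codons are in capitals, and the tails of 5 of the 6 members that were tested are printed, Tubb6 being named only.
Tubb2a: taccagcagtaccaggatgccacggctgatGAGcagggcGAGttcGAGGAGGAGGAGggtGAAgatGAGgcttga
Tubb2b: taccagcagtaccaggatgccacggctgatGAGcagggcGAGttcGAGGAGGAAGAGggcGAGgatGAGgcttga
Tubb3: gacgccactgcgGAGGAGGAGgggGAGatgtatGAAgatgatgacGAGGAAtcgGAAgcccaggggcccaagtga
Tubb4b: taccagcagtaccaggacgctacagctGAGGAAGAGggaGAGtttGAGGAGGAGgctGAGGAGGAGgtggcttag
Tubb5: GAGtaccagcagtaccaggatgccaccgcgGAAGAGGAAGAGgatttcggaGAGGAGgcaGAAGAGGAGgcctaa
Of the 24 codons before the stop, 8 encode glutamate in Tubb2a, Tubb2b and Tubb3, and 10 do in Tubb4b and Tubb5. Tubb2a and Tubb2b differ at 3 of these 75 bases and at none of the residues they encode, and the whole proteins differ at 2 of 445 residues. Their coding sequences are 96.5% identical. Every other pair of members is between 72.9% and 85.7% identical.

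Values are in TPM, which is scaled by transcript length and to the same total of 1000000 in every library. TPM keeps no sequencing depth, so the depth of the libraries is unknown and counting error cannot be given. The labels name no animal or culture. A p-value here therefore reflects the spread between single-oocyte libraries alone, which may be technical. The oocyte factor Gdf9 was abundant everywhere, at 4708 to 6845 TPM in the control libraries and 5324 to 7556 TPM in the TubA libraries. Markers of other ovarian cells were far below Gdf9. The 13 cumulus and granulosa genes summed to 12.4 to 17.8 TPM in the control libraries and 14.0 to 20.6 TPM in the TubA libraries. Most of these sums came from Cyp19a1, at 6.59 to 18.0 TPM over the 10 libraries, and Cyp11a1, at 1.47 to 4.23 TPM. The other 11 averaged under 1 TPM each, with Amh and Foxl2 at 0 in every library. Of 8 theca and stroma genes the sums were 2.32 to 17.2 and 2.10 to 13.1 TPM. Of 7 blood, immune and endothelial genes they were 27.2 to 75.6 and 39.7 to 79.4 TPM. Most of the latter came from Pecam1, averaging 26.0 TPM over the 10 libraries, and C1qb, averaging 19.2 TPM. These averages are near that of Tubb4b, 20.8 TPM, so these markers were not low beside every beta-tubulin gene. Clustering of all genes tested placed control 1 to 3 and TubA 1 and 2 in set A, and control 4 and 5 and TubA 3 to 5 in set B. These sets are no label of the submitters and were found from the same values. Control 1 had the fewest transcripts above 0, 36465, against up to 42529 in TubA 1, and it and TubA 4 stood apart in the beta-tubulin genes as described below.

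Metaphase II oocytes carried beta-tubulin mRNA mainly from Tubb2a and Tubb3. Tubb2a averaged 230.3 TPM and Tubb3 143 TPM over the 10 libraries. Tubb6 averaged 36.0 TPM, Tubb5 32.0 TPM and Tubb4b 20.8 TPM. Tubb2b was at 4.50 TPM and Tubb4a at 0.710 TPM, and Tubb1 was listed at 0 in every library. Together Tubb2a and Tubb3 made up 82.8 ± 4.16% of the family's TPM in control and 79.5 ± 9.86% with TubA (mean ± SD over 5 libraries a group, as in all pairs of means below). That share ran from 62.0% in TubA 4 to 88.0% in control 1.

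This order, and so the choice of pairs, comes from the means of the same 10 libraries. Neighbours in it were compared within each library on the log2(TPM + 1) scale. The test was an exact two-sided sign-flip permutation test over 10 libraries, adjusted over the 7 neighbouring pairs. Tubb3 was above Tubb6, Tubb4b above Tubb2b and Tubb2b above Tubb4a in 10 of 10 libraries. In each of these 3 pairs the exact permutation p was 0.0020, the smallest the test can give, and 0.0034 adjusted. The pair of Tubb4a and Tubb1 tests nothing, since any value above 0 exceeds a gene listed at 0. Adjusted over the 6 pairs without it, a choice made after seeing the data, the p of the 3 pairs was 0.0039 and that of the next pair 0.018. That pair was Tubb5 and Tubb4b, with Tubb5 above in 9 of 10 libraries, by 0.51 ± 0.41 (SD) on the log2 scale (exact permutation p = 0.012, adjusted 0.016). With coding transcripts alone their order was the reverse, Tubb5 averaging 3.95 TPM and Tubb4b 20.8 TPM. Tubb2a was above Tubb3 in 9 of 10 libraries, by 0.52 ± 0.80, which was within the spread (exact permutation p = 0.076, adjusted 0.089). Tubb6 and Tubb5 could not be ordered, with a difference of 0.01 ± 0.36 and Tubb6 above in 5 of 10 libraries (exact permutation p = 0.90).

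**Figure D1:**
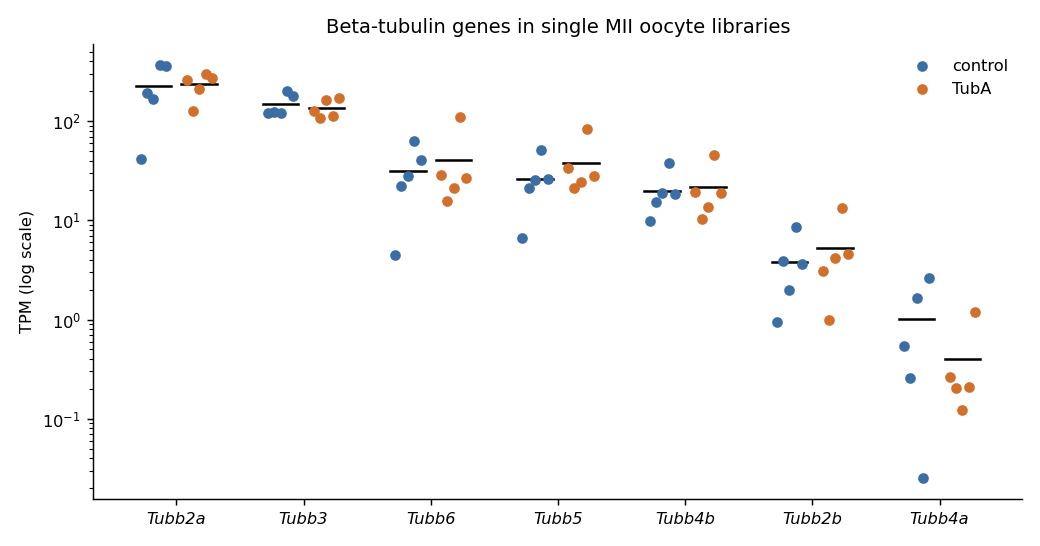
TPM of each beta-tubulin gene on a log scale, 1 point per library, control and TubA side by side, with a bar at each group's mean; Tubb1, listed at 0 everywhere, is not drawn. Tubb2a and Tubb3 lie highest, the groups overlap in every gene drawn, and the lowest points of Tubb2a, Tubb5, Tubb6 and Tubb4b belong to control 1.

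TubA against control was tested with limma on log2(TPM + 1), with Benjamini-Hochberg adjustment over the 11664 genes whose mean was at least 1 TPM. The comparison asks whether maturation with TubA went with other transcript levels. Of the 8 beta-tubulin genes 6 passed this filter. None of these 6 was called at an adjusted p under 0.05, beside 0.00857% of all genes tested, which is 1 gene, Rpl36-ps1, named after its value was seen. In none of the 6 did the groups separate without overlap, beside 0.454% of all genes tested, and none had an unadjusted p under 0.05, beside 2.51%. The adjusted p was 0.9999 for each of the 6. Their differences, TubA minus control, were positive in 5 and negative in 1, with a median of 0.31 beside 0.01 over all genes tested. The signs of 5 of them turned when control 1, TubA 4 or both were left out, as given with each gene.

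Tubb2a (chr13:34074274-34078007, minus strand, GRCm38 as for all positions here) had the highest mean of the members, although Tubb3 was above it in control 1. Its control libraries stood at 41.5, 190.4, 167, 371 and 358 TPM and its TubA libraries at 262, 128, 211, 301 and 273 TPM, in the order of replicates 1 to 5. Control 1 was the lowest library and controls 4 and 5 the highest, so the TubA values lay inside the control range. The means were 226 ± 139 TPM in control and 235 ± 68.3 TPM with TubA. The difference was 0.34 on the log2 scale (SE 0.51, 95% confidence interval -0.76 to 1.45, limma, unadjusted p = 0.51). It was -0.18 without control 1. Within the library sets it was 0.73 in set A and -0.49 in set B, and Tubb2a averaged 158 TPM in set A and 303 TPM in set B.

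Tubb3 (chr8:123411424-123422015, plus strand), best known as a marker of neurons, was the steadiest of the 6 genes tested. Its control libraries stood at 122, 123, 121, 200.2 and 181 TPM and its TubA libraries at 126, 107, 162, 112 and 172 TPM. The highest and lowest library were 1.87 times apart, and controls 4 and 5 were the highest. The means were 149 ± 38.1 and 136 ± 29.4 TPM. The log2 difference was -0.13 (SE 0.21, 95% confidence interval -0.59 to 0.34, limma, unadjusted p = 0.56), the narrowest interval of the 6. It was -0.07 in set A alone and -0.38 in set B alone. Tubb3 lies inside the annotated span of Gm20388 on the same strand, with which it shares no exonic base.

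Tubb6 (chr18:67390717-67402749, plus strand) varied most of the 6. It stood at 4.42, 22.0, 28.0, 63.2 and 41.0 TPM in control and at 28.9, 15.5, 21.0, 109 and 26.6 TPM with TubA, 24.7 times between its ends. Control 1 was far below the others and TubA 4 far above them. The means were 31.7 ± 22.0 and 40.3 ± 38.9 TPM, and the log2 difference was 0.35 (SE 0.64, 95% confidence interval -1.04 to 1.75, limma, unadjusted p = 0.59). Without control 1 it was -0.20 and without TubA 4 it was -0.09. It was 0.54 within set A and -0.36 within set B.

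Tubb5 (chr17:35833921-35838306, minus strand), the isotype used by most dividing cells, had the largest difference of the 6. It stood at 6.64, 21.3, 25.3, 50.6 and 25.9 TPM in control and at 33.4, 21.0, 24.2, 83.8 and 27.8 TPM with TubA. Control 1 was again lowest and TubA 4 highest, and the other 8 libraries of both groups lay between 21.0 and 50.6 TPM. The means were 26.0 ± 15.8 and 38.0 ± 26.0 TPM. The log2 difference was 0.58 (SE 0.48, 95% confidence interval -0.47 to 1.63, limma, unadjusted p = 0.25). It was 0.19 without control 1, 0.25 without TubA 4 and -0.14 without both. Set A alone gave 0.74 and set B alone 0.08. Leaving out the lowest control and the highest TubA library lowers the difference by construction, and that choice was made after seeing the values.

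Tubb4b (chr2:25222160-25224702, minus strand), a broadly expressed isotype, stood at 9.80, 15.3, 18.7, 37.8 and 18.2 TPM in control and at 19.4, 10.4, 13.6, 45.9 and 18.9 TPM with TubA. The groups covered nearly the same range, with means of 19.97 ± 10.6 and 21.7 ± 14.1 TPM. The log2 difference was 0.06 (SE 0.41, 95% confidence interval -0.83 to 0.95, limma, unadjusted p = 0.89). Without control 1 it was -0.15 and without TubA 4 it was -0.25. It was 0.01 in set A alone and -0.19 in set B alone. The last exon of Tubb4b overlaps Fam166a on the opposite strand over 121 bases, and without strand those reads cannot be told apart. Fam166a averaged 0.290 TPM. Of the 31-base words of Tubb4b 41.0% also occur in a pseudogene, Tubb4b-ps1, and with its low-level copies added the difference was 0.06.

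Tubb2b (chr13:34126748-34130466, minus strand), the near copy of Tubb2a beside it on the chromosome, stood at 0.944, 3.86, 1.99, 8.50 and 3.61 TPM in control and at 3.10, 0.978, 4.18, 13.2 and 4.56 TPM with TubA. Control 1 and TubA 2 were lowest, and control 4 and TubA 4 highest. The means were 3.78 ± 2.89 and 5.21 ± 4.70 TPM, and the log2 difference was 0.29 (SE 0.53, 95% confidence interval -0.86 to 1.43, limma, unadjusted p = 0.60). It was 0.01 without control 1 and -0.09 without TubA 4. It was -0.10 in set A alone and 0.17 in set B alone. Tubb2a was 22.7 to 131 times Tubb2b. Since 51.1% of the 31-base words of Tubb2a and 35.2% of those of Tubb2b occur in the other gene, how reads were divided between these 2 genes is uncertain. A pseudogene, Tubb2a-ps2, averaging 0.188 TPM, also holds 30.6% of the words of Tubb2a and 27.0% of those of Tubb2b. With this copy added the log2 difference was 0.37 for Tubb2b and 0.34 for Tubb2a.

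Tubb4a (chr17:57080066-57087782, minus strand), the isotype of myelinating cells, was too low to be tested. It stood at 0.547, 0.255, 1.65, 0.0251 and 2.64 TPM in control and at 0.263, 0.203, 0.122, 0.208 and 1.19 TPM with TubA. Replicate 5 was the highest library in both groups, and the groups overlapped. The means were 1.02 ± 1.10 and 0.398 ± 0.448 TPM. Tubb1 (chr2:174450695-174457882, plus strand), the isotype of platelets, was listed at 0 in all 10 libraries.

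**Figure D2:**
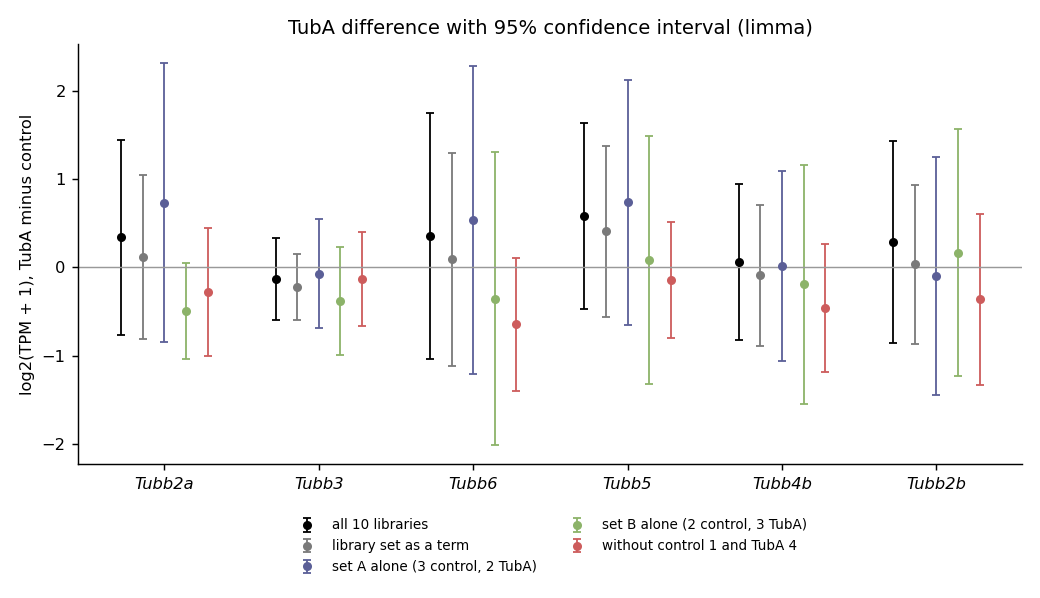
Differences in log2(TPM + 1), TubA minus control, for the 6 beta-tubulin genes tested, with limma's 95% confidence intervals, from all 10 libraries, with the library set as a term, from each set alone, and without control 1 and TubA 4. Every interval drawn spans 0, and the points of each gene other than Tubb3 fall on both sides of 0, while those of Tubb3 lie below it.

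The isotypes did not all vary alike from oocyte to oocyte. Within groups, Tubb6 had an SD of 1.21 on the log2(TPM + 1) scale, above 95.3% of the genes tested, Tubb2a 0.963 (above 89.2%) and Tubb2b 0.942 (above 88.4%). Tubb5 had 0.891 (above 86.2%) and Tubb4b 0.720 (above 74.4%). Tubb3 had 0.331, above 19.4% of the genes tested, whose median was 0.516. These percentages are over genes of every level and not over genes of like mean, while the members themselves differ widely in level. Among the 6 genes tested, control 1 was the lowest library in all but Tubb3, and TubA 4 was the highest in Tubb2b, Tubb4b, Tubb5 and Tubb6. TubA 2 was the lowest library for Tubb3 and next to lowest for the other 5.

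The mix of isotypes stood apart in control 1 and TubA 4. Tubb2a made up 22.3% of the family in control 1 and 45.1% to 56.8% in each of the others. Tubb3 made up 65.6% in control 1 and 16.8% in TubA 4, against 26.6% to 37.9% elsewhere. Tubb6 made up 16.4% in TubA 4 and 2.38% in control 1. Genes of the oocyte marker list went both ways in these libraries. Control 1 was the lowest control in 6 of its 10 genes, and TubA 4 was the highest TubA library in 4 and the lowest in 4. Both ends matched those of most beta-tubulin genes in Zp1, Zp2, Zp3 and Nlrp5, as with the egg-coat gene Zp3 at 406 TPM in control 1 and 8123 TPM in TubA 4. H1foo, the oocyte linker histone, went the other way, at 17051 TPM in control 1 and 11009.7 TPM in TubA 4, each the end of its group. Of the 7 blood, immune and endothelial genes, C1qb matched both ends, at 2.91 TPM in control 1 and 54.3 TPM in TubA 4. Ptprc also did, but near 0, at 0.0437 and 0.0802 TPM, while Pecam1 stood at 21.4 and 22.7 TPM. With ties at 0 counted, control 1 was the lowest control in 4 of the 7 genes. TubA 4 was the highest TubA library in 2 of them and the lowest in 3, among these Hbb-bs at 0 TPM. Nr5a1 alone of the 13 cumulus and granulosa genes matched both ends, at 0 TPM in control 1 and 0.0943 TPM in TubA 4. No theca and stroma gene did. Marker genes are named here after their values were seen, and their part in the beta-tubulin values was not tested.

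**Figure D3:**
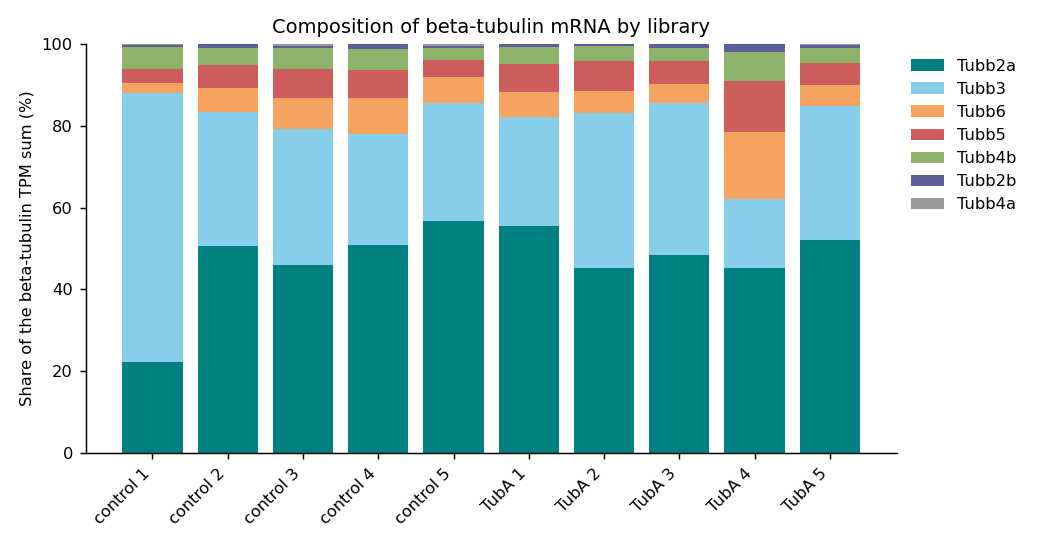
Percentage of the beta-tubulin TPM sum that each gene contributed, stacked by gene, 1 bar per library. Tubb2a and Tubb3 together hold 62.0% of the sum in TubA 4 and 88.0% in control 1, where Tubb3 alone holds 65.6%.

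**Figure D4:**
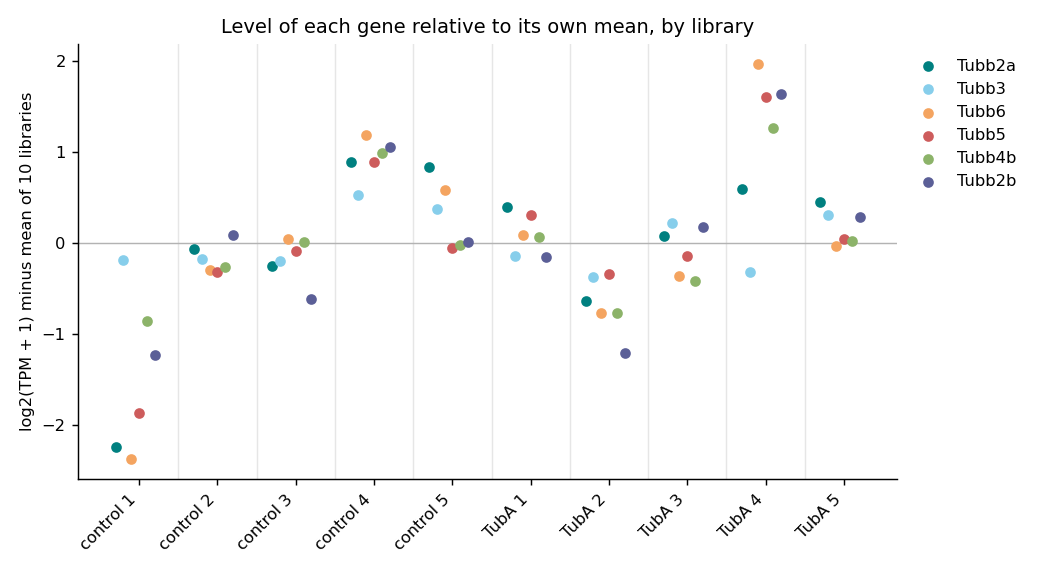
log2(TPM + 1) of each of the 6 beta-tubulin genes minus that gene's own mean over the 10 libraries, by library. All points of control 1 lie below 0 with that of Tubb3 nearest to it, and in TubA 4 Tubb3 alone lies below 0.

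The family sum stood at 186, 376, 364, 731 and 630.3 TPM in control and at 473, 283, 436, 665 and 524 TPM with TubA. Control 1 was lowest and control 4 highest, and every TubA library lay between them. The means were 458 ± 220.3 and 476 ± 139 TPM, a ratio of 1.04, and the family was 0.0186% to 0.0731% of a library. The log2 of this ratio of mean TPM was 0.06, which is not the same measure as limma's difference of log2 values. Single libraries had a pooled SD within groups of 0.64 on the log2 scale. The log2 ratio of mean TPM was 0.29 in set A alone and -0.33 in set B alone. No p is given for a sum over chosen genes.

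The Tubb5 value rested mostly on a transcript annotated as non-coding. A retained-intron transcript of 979 bases averaged 22.3 ± 14.2 TPM in control and 33.8 ± 23.9 TPM under TubA. The coding transcript, of 2649 bases, stood at 3.68 ± 1.85 and 4.22 ± 2.30 TPM. The retained-intron transcript held 82.6 ± 9.75% of the Tubb5 TPM in control and 88.3 ± 3.40% with TubA, from 65.8% in control 1 to 90.9% in TubA 2. The other 2 annotated transcripts of Tubb5 were listed at 0. Of the bases of the retained-intron transcript, 655 lie in the coding exons of the coding transcript and 324 lie in the intron before its second exon. The boundary (chr17:35836707-35836766, minus strand, GRCm38) is shown because only the bases before it tell the retained-intron transcript from the coding one, with 30 intron bases in lower case and 30 exon bases in capitals.
Tubb5: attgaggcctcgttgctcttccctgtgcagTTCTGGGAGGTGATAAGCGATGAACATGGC
The intron bases end in ag, as at a splice acceptor. For 6190 tested protein-coding genes with a retained-intron transcript, the median share of such transcripts was 1.04% of the gene's TPM. In 106 of them (1.71%) it was at least that of Tubb5, whose share of the mean was 87.7%. TPM is per transcript length, so equal coverage of the shared exons counts for more in a shorter transcript, and no source used here says how reads were divided between transcripts.

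The coding transcript of Tubb5 stood at 2.27, 3.66, 3.09, 6.85 and 2.54 TPM in control and at 4.71, 1.92, 4.0, 7.83 and 2.62 TPM with TubA. The retained-intron transcript stood at 4.37, 17.7, 22.2, 43.8 and 23.4 TPM in control and at 28.6, 19.1, 20.2, 76.0 and 25.2 TPM with TubA. The groups overlapped in both, with control 4 and TubA 4 highest in each. The log2 difference was 0.12 for the coding transcript (limma, unadjusted p = 0.74) and 0.67 for the retained-intron transcript (limma, unadjusted p = 0.24). Neither was called, beside 0.00458% of the 21838 transcripts tested. With coding transcripts alone Tubb5 averaged 3.95 TPM and moved below Tubb2b in the order, where it could not be told apart from that gene (exact permutation p = 0.86 over 10 libraries). In the other members 1 coding transcript carried the gene: it held 99.9% of the TPM of Tubb3 and 98.9% of that of Tubb2b.

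**Figure D5:**
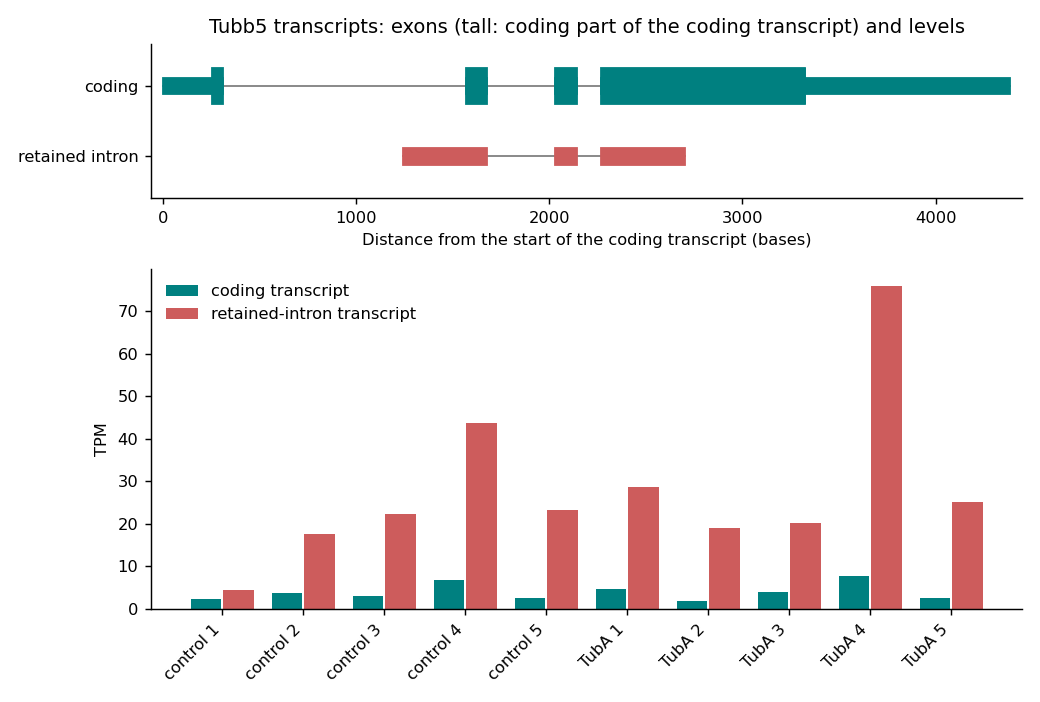
Top, exons of the coding and the retained-intron transcript of Tubb5 by distance in bases from the start of the coding transcript, with its coding part drawn tall; bottom, TPM of both transcripts in each library. The retained-intron transcript is above the coding transcript in each of the 10 libraries, from 4.37 against 2.27 TPM in control 1 to 76.0 against 7.83 TPM in TubA 4.

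The genes that make, fold, modify and bind beta-tubulin were read from the same fit. In each of 5 lists no gene was called and none had groups without overlap, beside the 0.00857% and 0.454% of all genes tested. Of 22 folding genes (the CCT ring, prefoldin and the tubulin cofactors) 19 were tested, 12 with a positive and 7 with a negative difference and a median of 0.08. Pfdn4, a prefoldin subunit, stood at 2198 ± 1559 and 2529 ± 1676 TPM, Tbca, a cofactor that holds beta-tubulin, at 106 ± 39.6 and 76.0 ± 20.1 TPM, and Pfdn5 at 98.7 ± 68.6 and 76.5 ± 44.4 TPM. Cct6a was not analysed here.

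Of 9 genes of tubulin mRNA autoregulation, 6 had a positive and 3 a negative difference, with a median of 0.13. The deadenylase subunit Cnot7 stood at 1055 ± 288 and 1053 ± 314 TPM, its paralog Cnot8 at 552 ± 90.1 and 496 ± 30.1 TPM, and Cnot11, the subunit recruited to tubulin mRNA, at 302 ± 129 and 346 ± 38.1 TPM. Ttc5, which reads the first residues, had a log2 difference of 0.60 (limma, unadjusted p = 0.28); it was named for its role, outside the rule for named genes and after its value was seen.

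Of 20 enzymes acting on the C-terminal tails 14 were tested, 10 with a positive and 4 with a negative difference and a median of 0.05. Agtpbp1, which shortens glutamate chains, stood at 51.2 ± 19.6 and 69.0 ± 14.2 TPM, a log2 difference of 0.48 (limma, unadjusted p = 0.091). It was 1.13 in set A alone and -0.27 in set B alone. Ttll11, a polyglutamylase, stood at 48.6 ± 17.9 and 50.4 ± 23.4 TPM, and Tpgs2, a subunit of the polyglutamylase complex, at 41.8 ± 11.99 and 46.1 ± 8.37 TPM. Of 17 dimer-binding and severing proteins 15 were tested, 7 with a positive and 8 with a negative difference and a median of -0.07. The plus-end protein Mapre1 stood at 329 ± 80.8 and 253 ± 63.2 TPM, a log2 difference of -0.38 (limma, unadjusted p = 0.11), its relative Mapre2 at 129.6 ± 56.9 and 116 ± 31.3 TPM, and Fignl1, of a family of severing enzymes, at 147 ± 34.1 and 132 ± 29.7 TPM.

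Of 8 alpha-tubulin genes, the partners in the dimer, 7 were tested and all 7 had a negative difference, with a median of -0.11 and none past the test. Tuba1c stood at 259 ± 121 and 219 ± 49.4 TPM, Tuba3a at 80.9 ± 26.5 and 76.4 ± 26.5 TPM and Tubal3 at 28.9 ± 9.14 and 25.5 ± 3.56 TPM. The signs of these 3 genes turned when single libraries were left out. The ratio of the beta-tubulin to the alpha-tubulin sum was 0.793, 0.990, 0.585, 1.54 and 1.52 in control and 1.10, 1.03, 1.21, 1.54 and 1.35 with TubA. The groups overlapped, with means of 1.09 ± 0.430 and 1.25 ± 0.204.

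Genes most like the leading members were ranked by the mean absolute difference between their profiles over the 10 libraries, each on the log2(TPM + 1) scale and centred on its own mean, among 6209 genes averaging at least 10 TPM. Nearest to Tubb2a were Nudt19 (0.18), Tmem183a (0.23) and Kdf1 (0.24), where the mean absolute deviation of Tubb2a itself was 0.64. Tubb5 was at 0.37 from Tubb2a (rank 89), Tubb6 at 0.40 (rank 134), Tubb4b at 0.49 (rank 402) and Tubb3 at 0.50 (rank 500). Nearest to Tubb3, with a deviation of 0.28, were Mfsd10 (0.09), Vrk1 (0.13) and Nckap5 (0.13). From Tubb3, Tubb4b was at 0.49, Tubb2a at 0.50, Tubb5 at 0.57 and Tubb6 at 0.72, each more than the deviation of Tubb3 itself. All of these values come from the same 10 libraries.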

How the data were processed

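Per the submitters' processing notes, reads were handled with Bowtie 0.12.2 among other tools, on mm10. An abundance program with its annotation is not given in the sources used here, and strand is not stated. The deposited files hold TPM, 1 value for each of 115270 Ensembl transcripts per library. With GENCODE M21, which annotates the same assembly (GRCm38), 113492 transcripts matched and were summed to genes, while 1778 did not and were left out (0.531% to 0.753% of the TPM). Groups and replicate numbers came from the sample titles.

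TubA was tested against control with limma 3.58.1 (R 4.3.3, trend and robust) on log2(TPM + 1) for genes, or transcripts, with a mean of at least 1 TPM, adjusted over all of them at 0.05. The pseudocount understates differences of low genes. Tested on 10 simulated data sets of 11664 genes with 200 changed, the fit found 30.8% of the 2-fold and 79.2% of the 4-fold changes, and 5.84% of calls were false. The changed genes were drawn only from the more abundant ones, and the simulated noise was independent, without differences shared by a library or library set. Of the 6 members tested all but Tubb3 varied more than the median gene, so these rates need not hold for them. Tables and figures used Python 3.11.15, pandas 2.3.3, numpy 2.4.6 and matplotlib 3.10.9.

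Named genes are the 8 members, member transcripts of at least 0.5 TPM, the 3 most abundant members of each list with any called or not overlapping, copies of at least 1 TPM (sharing at least 20% of a member's 31-base words, of which there were none beside members), the 3 genes most like each of the 2 leading members, and Gdf9. Outside this rule are genes overlapping a member, Tubb4b-ps1, Tubb2a-ps2, Cct6a as not analysed, and marker genes, named with their values known. Rpl36-ps1 and Ttc5 are marked where they appear. The members and lists were chosen with earlier results of these data known. Alternatives were other pseudocounts, filters, scalings and weights, the replicate number as a block, the library sets, copies added, coding transcripts alone and each library left out. Leaving out control 1 and TubA 4 together, and the pair with a gene listed at 0, was added after seeing the data.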

Additional observations from a re-analysis of the deposited data

Results flagged for a closer look

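In groups of 5 libraries, the highest or lowest library was compared with its nearest neighbour as a share of the group's range, against Dixon's limit. Of 50 groups looked at, 8 (16.0%) had a library beyond the limit. Chance gives about 1 in 20 groups only for independent, normally distributed values. The values here were TPM and not on the log2 scale, and the genes share their libraries. Tubb5, its transcripts and the family sum were also counted separately, so the rates cannot be compared. TubA 4 was far above the other TubA libraries in Tubb4b (45.9 TPM, the next being 19.4 TPM), Tubb5 (83.8 and 33.4 TPM), Tubb6 (109 and 28.9 TPM) and the retained-intron transcript of Tubb5 (76.0 and 28.6 TPM). TubA 5 was far above the others in Tubb4a, at 1.19 TPM against 0.263 TPM. Control 1 was far above the other controls in Pfdn4, at 4919 TPM against 1794 TPM. Control 3 was far below the others in Cnot11, at 74.1 TPM against 333 TPM, and far above them in Ttll11, at 79.2 TPM against 46.3 TPM.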

How the results depend on the processing

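No beta-tubulin gene or transcript and no listed partner gene was called under any alternative tried, and adjusted p-values of the members ran from 0.934 to 1.0. Their signs were less steady: of 137 values of 6 members under alternatives, 20 had the other sign, none of them in Tubb3. Sequencing depth is unknown, so how far it limits the low members Tubb2b and Tubb4a cannot be given.

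With library weights the log2 difference was -0.036 for Tubb2a, -0.14 for Tubb2b, -0.21 for Tubb4b, -0.17 for Tubb6, -0.11 for the Tubb5 coding transcript, 0.22 for Cnot7 and -0.015 for Tpgs2. With the library set as a term it was -0.090 for Tubb4b, 0.054 for Cnot7 and 0.033 for Ttll11. In set A alone it was -0.10 for Tubb2b, 0.14 for Cnot7 and 0.0023 for Tuba3a. In set B alone it was -0.49 for Tubb2a, -0.19 for Tubb4b, -0.36 for Tubb6, 0.080 for Cnot8, -0.10 for Cnot11, -0.27 for Agtpbp1, 0.22 for Ttll11, -0.10 for Tpgs2 and 0.22 for Tubal3. For Ttll11 it was 0.0018 with median-of-ratios scaling and 0.0015 with quantile normalization. Without control 1 and TubA 4 together it was -0.28 for Tubb2a, -0.36 for Tubb2b, -0.45 for Tubb4b, -0.14 for Tubb5, -0.65 for Tubb6, -0.20 for the Tubb5 coding transcript, -0.13 for the Tubb5 retained-intron transcript, 0.15 for Cnot7 and -0.035 for Tpgs2. Taking out the lowest control and the highest TubA library lowers these member values by construction. For the rest the cause was not tested.

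Leaving out each library in turn gave log2 differences of -0.18 to 0.61 for Tubb2a, -0.088 to 0.62 for Tubb2b and -0.22 to -0.02 for Tubb3. They were -0.25 to 0.31 for Tubb4b, 0.19 to 0.87 for Tubb5 and -0.20 to 0.69 for Tubb6. The Tubb5 coding transcript ran from -0.092 to 0.33 and the Tubb5 retained-intron transcript from 0.21 to 0.97. Leaving out each library also gave -0.14 to 0.29 for the family sum, there as the log2 ratio of mean TPM. It gave -0.12 to 0.51 for Pfdn4, -0.68 to 0.21 for Pfdn5, -0.13 to 0.12 for Cnot7, -0.056 to 0.54 for Cnot11, -0.20 to 0.18 for Ttll11, -0.32 to 0.12 for Mapre2, -0.41 to 0.090 for Tuba1c, -0.25 to 0.13 for Tuba3a and -0.24 to 0.020 for Tubal3.

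Over all genes 1 was called, and 0 were with a mean of at least 5 TPM (limma, 166 at an unadjusted p under 0.05), 12 in set A and 0 in set B (208 at an unadjusted p under 0.05). Over all transcripts 1 was called, and 0 were with a mean of at least 5 TPM (314), 23 in set A, 0 in set B (604), 0 without control 1 and TubA 4 (1036) and 0 to 2 leaving out one library. Of the 7 neighbouring pairs 5 passed, 1 of them by construction since Tubb1 is listed at 0, and without it 4 of 6 did. In control or TubA libraries alone 0 passed, where 5 libraries cannot give an exact permutation p below 0.0625.

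The replicate numbers showed no clear pairing of the libraries: same-numbered libraries had correlations of -0.31 to 0.48, over 0.1 in 2 of 5 pairs, and 2 of 5 libraries were best matched by their own number. With 5 pairs and no animal or culture in the labels, whether the libraries are paired is unknown. With the replicate block 0 genes were called (313 at an unadjusted p under 0.05) and 0 transcripts (672), and no member was.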

Other observations

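The ratio of the beta-tubulin to the alpha-tubulin sum separated the library sets rather than the groups. It was 0.585 to 1.10 in the 5 libraries of set A and 1.21 to 1.54 in the 5 of set B. The sets were found by clustering the same values, so some genes must differ between them, and no test is given. Fignl1 also separated the sets, at 142 TPM or more in set A and 127 TPM or less in set B. So did Nudt19, Mfsd10 and the oocyte marker gene Dppa3, each higher in every library of set B than in any of set A. How many of all genes do so was not counted, so the separation cannot be called particular to the ratio or to Fignl1.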
